A study of Mus musculus with 6 samples.

Results

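N6-methyladenosine (m6A) is a methyl mark placed on adenosines of messenger RNA, and 10 genes of its machinery were followed in fully-grown oocytes (FGOs) of mice that carry or lack Lsm14b, the gene of an RNA-binding protein of the oocyte. The genes were taken by symbol from the deposited expression table, which lists 24255 genes. They comprise 3 writer genes (Mettl3, Mettl14 and Wtap), 1 eraser gene (Alkbh5) and 6 reader genes (Ythdf1, Ythdf2, Ythdf3, Ythdc1, Ythdc2 and Igf2bp2). The rule uses the symbol alone.

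RNA was profiled by RNA-Seq after Smart-seq2 amplification in 3 wild type (WT) and 3 Lsm14b-KO libraries, each made from 20 oocytes at the germinal vesicle (GV) stage. The KO mice were homozygous for the reporter-tagged insertion Lsm14b tm1a(KOMP)Mbp, which is present in every cell of the animal and not only in the oocyte, and the colony was kept on C57BL/6J. Females of both genotypes received 5 IU of PMSG, which drives follicle growth, and oocytes were taken 46 hours later. Neither the number of females behind a library nor their age in this experiment is given in the sources used here, and KO mice were bred from homozygous males and heterozygous females, a mating that yields no WT littermates. The p-values below therefore measure the spread between these libraries, which may be technical.

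In textbook terms, METTL3 is the catalytic subunit of the nuclear writer complex, METTL14 is the partner that holds the RNA, and WTAP brings the pair to nuclear speckles. ALKBH5 removes the mark. Proteins with a YTH domain bind it: YTHDF2 shortens the life of bound transcripts, YTHDC1 acts in the nucleus on splicing and export, and IGF2BP2 stabilizes transcripts. In the mouse, YTHDF2 is known to be needed in the oocyte for the clearance of maternal transcripts. Fully-grown oocytes make almost no new RNA, so that the level of a transcript depends on what was made during growth and on what was kept.

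Lsm14b itself was at 2.77, 3.98 and 1.72 FPKM (sequenced fragments per transcript length and library size) in the WT libraries and at 0, 0 and 0.102 FPKM in the KO libraries, as labelled. All 10 oocyte markers examined, among them Gdf9 and Zp3, were present, with summed levels of 1958 to 3691 FPKM in WT and 1807 to 6351 FPKM in KO. Of 12 cumulus and granulosa cell markers, 5 (Amh, Foxl2, Inhba, Cyp11a1 and Ptx3) were listed at 0 in every library. Another 3 reached 1 FPKM in at least 1 library, with Cyp19a1 the highest. The 12 summed to between 9.73 and 13.5 FPKM in WT and between 6.13 and 10.1 FPKM in KO. A contribution of these cells to the values below was not tested. All 7 red blood cell markers in the table and 3 of 4 immune markers were listed at 0 throughout. The libraries were not scaled alike. From the steps in which low FPKM values move, the divisors of KO replicates 1, 2 and 3 were 1.33, 1.95 and 2.17 times that of WT replicate 1. Those of WT replicates 2 and 3 were 1.14 and 1.03 times that of WT replicate 1. Whether these divisors follow the number of fragments in a library was not tested. The FPKM of all genes summed to 564671 and 676656 in KO replicates 2 and 3, well under the other libraries. The KO libraries were less alike than the WT libraries. As a description across tested genes, the log2 values of KO replicate 1 correlated at 0.952 to 0.954 with the WT libraries, at 0.917 with KO replicate 2 and at 0.96 with KO replicate 3, and those of KO replicate 2 at 0.867 to 0.89 with the WT libraries and at 0.974 with KO replicate 3. Among 2015 tested genes that differed by 1 or more on the log2 scale between WT and KO replicates 2 and 3, KO replicate 1 had moved by a median of 38.4% of that difference. These genes were picked by KO replicates 2 and 3, which by itself lowers the share of the library left out. No matching share was computed for those libraries. Calls that change when this library is left out are given both ways.

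Alkbh5 and Ythdf2 had the highest KO-to-WT ratios of the 10 genes, and the stretch around the RefSeq start of each (GRCm38.p6, 250 bases before it and 50 after, read 5′ to 3′ on the gene's strand) is shown for orientation. They were picked after their values were seen. Capitals mark GGGCGG or CCAAT, or either read on the other strand.
Ythdf2 (chr4:132212207-132212506, minus strand): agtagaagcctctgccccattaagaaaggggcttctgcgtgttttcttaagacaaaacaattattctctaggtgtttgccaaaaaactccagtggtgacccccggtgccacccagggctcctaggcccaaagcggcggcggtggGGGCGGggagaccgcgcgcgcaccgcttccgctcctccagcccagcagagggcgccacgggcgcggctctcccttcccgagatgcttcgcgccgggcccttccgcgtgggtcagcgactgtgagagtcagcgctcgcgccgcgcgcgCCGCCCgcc
Alkbh5 (chr11:60537433-60537732, plus strand): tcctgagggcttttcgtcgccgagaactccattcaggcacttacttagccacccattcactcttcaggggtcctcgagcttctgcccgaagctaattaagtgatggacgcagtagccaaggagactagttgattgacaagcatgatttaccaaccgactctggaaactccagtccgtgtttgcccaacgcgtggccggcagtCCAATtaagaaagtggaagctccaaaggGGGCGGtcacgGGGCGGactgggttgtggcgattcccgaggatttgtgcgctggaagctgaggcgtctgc
Both windows held GGGCGG at 2 places, a motif found in 35.6% of the 32817 RefSeq promoter windows of the same length. The Alkbh5 window also held CCAAT, found in 37.4% of windows, and neither held TATAAA (13.6%) or CACGTG (7.15%). These matches describe the letters of the windows and no binding was measured. Ythdf2 lies at 132184912 to 132212303 of chromosome 4 and Alkbh5 at 60536381 to 60558512 of chromosome 11 in the GENCODE annotation, in which the Alkbh5 gene starts upstream of its RefSeq window, and 7 of the 10 genes had an entry in the promoter table.

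In WT oocytes the machinery was dominated by Wtap, and the other 9 genes were far lower. On the FPKM scale, which is per transcript length, the mean over the 3 WT libraries was 527 for Wtap, 11.1 for Igf2bp2 and 7.24 for Ythdf3. It was 3.10 for Alkbh5 and 3.09 for Ythdf2, then 2.14 for Ythdc1, 1.66 for Mettl3 and 0.96 for Ythdf1. Ythdc2, at 0.298, and Mettl14, at 0.243, were lowest. Neighbours in this order did not overlap in their library values, except Alkbh5 with Ythdf2, Ythdc1 with Mettl3, and Ythdc2 with Mettl14. In KO oocytes Wtap again came first, but Alkbh5, with a mean of 29.2 FPKM, and Ythdf2, with 17.4 FPKM, stood above Igf2bp2, with 15.4 FPKM, and the values of these 3 genes overlapped. The place of Alkbh5 rested on KO replicate 2: without it the KO mean of Alkbh5 was 9.63 FPKM, below that of Igf2bp2 (15.1 FPKM in the same libraries), and in KO replicate 1 Alkbh5 was at 2.97 and Igf2bp2 at 12.7 FPKM.

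**Figure D1:**
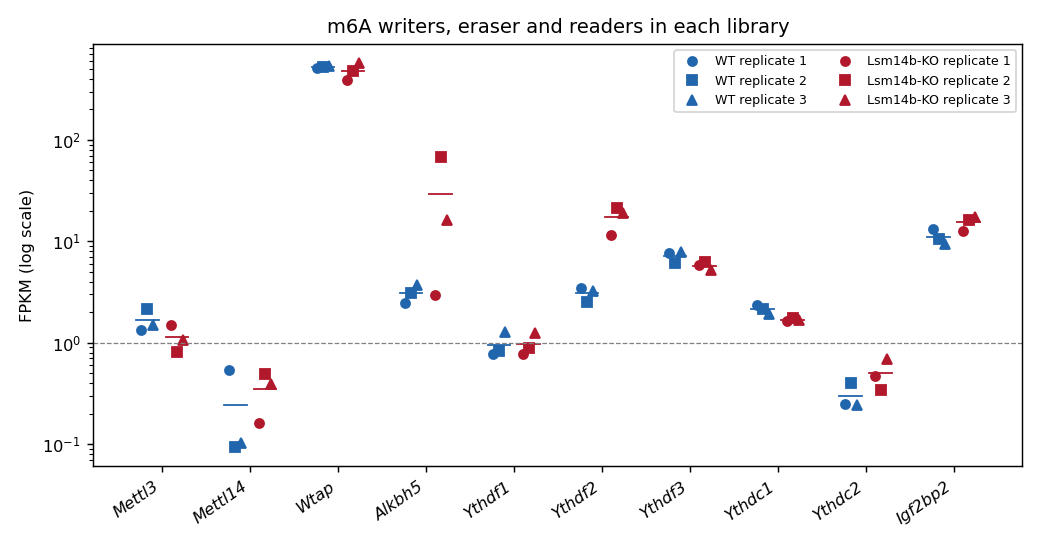
FPKM (log axis) of the 10 genes in each library, WT in blue and Lsm14b-KO in red; symbols give the replicate, short lines the group mean and the dashed line 1 FPKM. The 3 KO values of Ythdf2 all lie above the 3 WT values, whereas only KO replicates 2 and 3 of Alkbh5 do.

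The comparison of genotypes asks whether transcript levels of the m6A machinery differ in GV-stage FGOs without Lsm14b. Of the 10 genes, 8 reached 1 FPKM in at least 1 library and were tested with limma on log2(FPKM + 1). Ythdf2 was higher in KO and none was lower at an adjusted p under 0.05 (Benjamini-Hochberg over 6398 tested genes), which leaves 7 not called. Over all tested genes 21.6% were called, 6.38% as higher and 15.2% as lower in KO. Alkbh5 and Ythdf2 had an unadjusted p under 0.05. The median log2 fold change of the 8 was -0.07, beside -0.08 over all tested genes. Fold changes are differences on the log2(FPKM + 1) scale, which understates changes of low genes, and with 3 libraries a group the exact permutation test of one gene cannot go under a two-sided p of 0.10. FPKM are relative to the RNA in a library, so that an even loss of RNA per oocyte, or fewer cells in a pool, cannot be seen in them. A shift of a single gene can also follow from the levels of other genes in the same library, which was not tested.

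Ythdf2, the reader that shortens the life of marked transcripts, was at 3.50, 2.55 and 3.21 FPKM in WT and at 11.6, 21.3 and 19.2 FPKM in KO. The groups did not overlap, and the lowest KO value, that of KO replicate 1, was still above the highest WT value. The mean rose from 3.09 ± 0.49 to 17.4 ± 5.13 FPKM (SD, n = 3), a ratio of means of 5.63. The log2 fold change was 2.13 with an SE of 0.28 and a 95% interval of 1.49 to 2.78, and its limma adjusted p was 0.0033. It was the 16th highest of the 6398 fold changes. KO replicate 1 had covered 68.3% of the way from WT to the other KO libraries, just above the upper quartile (67.0%) of the genes that moved. Without that library the fold change was 2.39. The exact permutation p was 0.10, the smallest the design allows. Across the 15 alternatives the fold change lay between 1.95 and 2.75 and the limma adjusted p between 0.00042 and 0.0316. Measured from the median fold change of the tested genes it was 2.21, and 2.35 after rescaling every library to the same FPKM total, a step that moved that median by 0.48. The Ythdf2 transcript shares at least 95% of 200 or more bases with 2 processed pseudogenes, Gm6823 and Gm8401, neither of which has a row in the table, so reads of these loci, if any, could have been counted as Ythdf2.

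Alkbh5, the eraser, gave 2.45, 3.11 and 3.74 FPKM in WT and 2.97, 68.3 and 16.3 FPKM in KO. KO replicate 2 and KO replicate 3 were above every WT library, whereas KO replicate 1 sat inside the WT range. The log2 fold change was 2.05 with an SE of 0.87 and a 95% interval of 0.04 to 4.06, and it did not pass the threshold (limma adjusted p = 0.121). This value rested on single libraries. Without KO replicate 1 it was 3.09 and passed (limma adjusted p = 0.0047), and without KO replicate 2 it was 1.03 and did not (limma adjusted p = 0.256). Fto, the other eraser gene, did not reach 1 FPKM in any library.

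The 3 writer genes were each uncalled or too low to test. Mettl3 was at 1.33, 2.16 and 1.48 FPKM in WT and 1.503, 0.818 and 1.07 FPKM in KO. The groups overlapped, and the log2 fold change was -0.32 (SE 0.22, 95% interval -0.82 to 0.18, limma adjusted p = 0.295). Its transcript overlaps that of Tox4 on the other strand, and whether the counting used strand is not stated, so reads of the overlap cannot be assigned with certainty. Wtap was at 517, 525 and 538 FPKM in WT and at 389.8, 484 and 572 FPKM in KO. The KO libraries lay on both sides of the narrow WT range. Its log2 fold change was -0.15 (SE 0.29, 95% interval -0.80 to 0.51, limma adjusted p = 0.713). With libraries scaled to the same total, which raises most genes, the fitted values were 0.07 for Mettl3 and 0.55 for Wtap, without a call. Measured from the median of tested genes, Mettl3 was at -0.25 before and -0.33 after this scaling, whereas Wtap was at -0.07 before and 0.15 after it. Wtap also has 2 processed pseudogenes with near-identical stretches, Gm14292 and Gm7381, with no row in the table.

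Mettl14, the partner of METTL3, was at 0.533, 0.0933 and 0.103 FPKM in WT and at 0.160, 0.492 and 0.392 FPKM in KO. Multiplied by the relative divisor of their library, these values were whole multiples of one step, within 0.022 of a whole number. They came to 5, 1 and 1 steps in WT and 2, 9 and 8 in KO. The steps undo the library scaling and are not adjusted for the larger divisors of the KO libraries, so they do not compare the genotypes. If a step is 1 fragment, a difference between genotypes was not detectable from so few fragments. With the filter on low values removed, the log2 fold change was 0.13 (limma adjusted p = 0.659). The log2 ratio of Mettl3 to Mettl14 FPKM, which does not depend on library scale, was 3.23 ± 1.69 in WT and 1.80 ± 1.29 in KO (SD, n = 3, exact permutation p = 0.30), and the groups overlapped.

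Among the other YTHDF readers the picture differed from Ythdf2. Ythdf1 was at 0.781, 0.836 and 1.26 FPKM in WT and 0.783, 0.890 and 1.24 FPKM in KO. The groups covered nearly the same range, and the log2 fold change was 0.01 (SE 0.20, 95% interval -0.46 to 0.48, limma adjusted p = 0.974), with a sign that turned under several alternatives. Ythdf1 lies 868912 bp from Lsm14b on chromosome 2, on the chromosome that carries the insertion. Ythdf3 was at 7.76, 6.17 and 7.80 FPKM in WT and 5.85, 6.27 and 5.20 FPKM in KO. Only KO replicate 2 reached into the WT range, and the log2 fold change was -0.28 (SE 0.21, 95% interval -0.77 to 0.21, limma adjusted p = 0.343). With equal library totals it was 0.33, but measured from the median of tested genes it was -0.20 before and -0.07 after that scaling.

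The make-up of the family, which does not depend on library scale, followed from these values. Ythdf2 took 29.1%, 26.7% and 26.2% of the summed Ythdf1, Ythdf2 and Ythdf3 FPKM in WT and 63.6%, 74.9% and 74.9% in KO. Every KO library was above every WT library, and Ythdf3, at 63.6% to 64.6% in WT, was at 20.3% to 32.1% in KO. The mean Ythdf2 share was 27.3% ± 1.56 in WT and 71.1% ± 6.52 in KO (SD, n = 3, two-sided exact permutation p = 0.10, the smallest possible). The summed FPKM of the family was 12.0, 9.56 and 12.3 in WT and 18.2, 28.5 and 25.7 in KO.

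**Figure D2:**
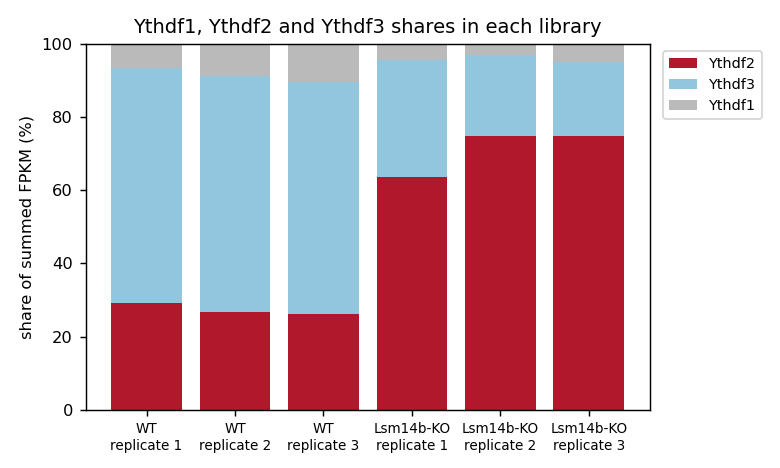
Share (%) of the summed Ythdf1, Ythdf2 and Ythdf3 FPKM taken by each gene, one bar for each library. Ythdf2 holds 26.2% to 29.1% in the WT libraries and 63.6% to 74.9% in the Lsm14b-KO libraries.

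Ythdc1, the nuclear reader, was at 2.36, 2.14 and 1.93 FPKM in WT and 1.64, 1.77 and 1.67 FPKM in KO. Each KO value was below each WT value, by a small margin. Ythdf2 and Ythdc1 were the 2 of 8 tested genes whose groups did not overlap, against 45.0% of all tested genes. The log2 fold change of Ythdc1 was -0.22 (SE 0.18, 95% interval -0.63 to 0.19, limma adjusted p = 0.361, exact permutation p = 0.10). With equal library totals the value was 0.25, but measured from the median of tested genes it was -0.15 both before and after that scaling. Its transcript overlaps that of Gm43055 on the same strand. Ythdc2, an RNA helicase with a YTH domain that is needed for meiosis, was at 0.249, 0.401 and 0.242 FPKM in WT and 0.470, 0.341 and 0.690 FPKM in KO, under the filter in every library. The groups overlapped, and with the filter removed its log2 fold change was 0.21 (limma adjusted p = 0.435).

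Igf2bp2, the reader that stabilizes transcripts, was at 13.3, 10.5 and 9.46 FPKM in WT and 12.7, 16.1 and 17.4 FPKM in KO. KO replicates 2 and 3 were above all WT libraries and KO replicate 1 was inside their range. The log2 fold change of 0.44 (SE 0.25, 95% interval -0.14 to 1.03) did not pass the threshold (limma adjusted p = 0.220) in this fit or in any of the 15 alternatives. Summed over the 6 readers and the 3 writers, the log2 ratio of reader to writer FPKM was -4.42 ± 0.18 in WT and -3.53 ± 0.14 in KO (SD, n = 3, two-sided exact permutation p = 0.10), with no overlap. Wtap made up 99.6% to 99.7% of the writer sum in each library, so this ratio is close to that of the readers to Wtap. On the reader side most of the difference was that of Ythdf2: the summed means of the 6 readers were 24.8 FPKM in WT and 41.7 FPKM in KO, a difference of 16.9 FPKM, of which Ythdf2 gave 14.3 and Igf2bp2 gave 4.35, while Ythdf3 and Ythdc1 were lower in KO by mean. Without Ythdf2 the sums were 21.7 and 24.4 FPKM.

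**Figure D3:**
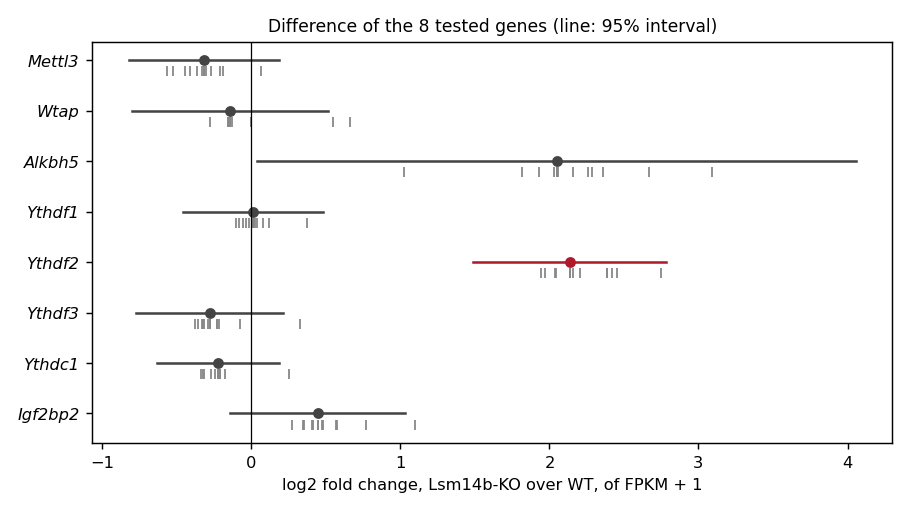
Difference between Lsm14b-KO and WT (log2 of FPKM + 1) for the 8 tested genes; points are the limma fits, lines their 95% intervals, grey ticks the values under the alternatives, and red marks the gene past the threshold. The interval of Ythdf2, from 1.49 to 2.78, is the only one called, and that of Alkbh5, from 0.04 to 4.06, is the widest of the 8.

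The letters GGACT are a common sequence context of m6A, and they were counted on the sense strand of one transcript of each gene, the longest one that RefSeq also lists, or else the longest. It occurred 10 times in Alkbh5, 6 in Wtap, 5 each in Ythdf2 and Igf2bp2, 4 in Mettl3, 3 each in Mettl14 and Ythdc2, 2 in Ythdc1 and 1 each in Ythdf1 and Ythdf3. Per kilobase it was densest in Mettl3 (1.98) and Wtap (1.88), followed by Alkbh5 (1.75), Igf2bp2 (1.28), Ythdf2 (1.21) and Mettl14 (1.09). It was sparser in Ythdc1 (0.61), Ythdc2 (0.42), Ythdf1 (0.31) and Ythdf3 (0.20), with a median of 0.97 over the tested genes. Methylation was not measured in these libraries, and a relation of this density to the fold changes was not tested.

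In addition, 30 further genes of the pathway were read from the same fit: 10 other writers, 1 other eraser, 8 other readers, 3 genes of methyl donor supply and 8 partners of the readers. Of these, 15 were tested, of which 1 was higher, 2 were lower and 12 were not called, beside 6.38% and 15.2% of all tested genes. Their median log2 fold change was 0.36, and 9 of the 15 had groups that did not overlap, beside 45.0% of all tested genes. Trmt112, the activating subunit of several methyltransferases including that of ribosomal m6A, was at 67.8, 78.2 and 68.0 FPKM in WT and 42.3, 14.5 and 20.6 FPKM in KO. All KO libraries were below WT, with KO replicate 1 nearest to it, and the log2 fold change was -1.57 (SE 0.40, limma adjusted p = 0.0300). Hnrnpa2b1, a nuclear RNA-binding protein proposed as a reader, was at 4.15, 2.58 and 3.24 FPKM in WT and 1.31, 1.03 and 1.41 FPKM in KO, with a log2 fold change of -0.93 (SE 0.21, limma adjusted p = 0.0211). Nxf1, the export receptor for messenger RNA, was at 0.496, 0.217 and 0.120 FPKM in WT and 1.30, 2.04 and 0.854 FPKM in KO, with a log2 fold change of 0.89 (SE 0.25, limma adjusted p = 0.0387). These calls were less stable than that of Ythdf2: Trmt112 and Hnrnpa2b1 each passed in 7 of 15 alternatives and Nxf1 in 7 of 14, without a change of sign. With any one of WT replicates 1, 2 and 3 or KO replicates 2 and 3 left out, none of the 3 passed (limma adjusted p of up to 0.120 for Trmt112, 0.0897 for Hnrnpa2b1 and 0.116 for Nxf1), although the fold changes stayed close, at -1.60 to -1.24, -1.06 to -0.80 and 0.70 to 1.06. Without KO replicate 1 all 3 passed, at -1.98, -0.95 and 0.90. The scaling also mattered. Hnrnpa2b1 was at -0.48 with equal library totals (limma adjusted p = 0.186) and at -0.58 with a correction for transcript length and GC content (limma adjusted p = 0.0773), although measured from the median of tested genes it was -0.85 before and -0.88 after equal totals. Trmt112 was at -0.90 with equal totals, where it passed (limma adjusted p = 0.0462), at -0.99 with the length and GC correction (limma adjusted p = 0.0503) and at -1.15 with quantile normalization (limma adjusted p = 0.0572). Nxf1 was at 0.71 with the length and GC correction (limma adjusted p = 0.0574). All 3 calls were lost without the filter on low values (limma adjusted p = 0.0690 for Trmt112, 0.0544 for Hnrnpa2b1 and 0.0805 for Nxf1).

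A further 3 of these genes had a mean of 10 FPKM or more without a call. Mat2b, a regulatory subunit of the enzyme that makes the methyl donor, was at 717, 686 and 911 FPKM in WT and 821, 898 and 970.4 FPKM in KO (log2 fold change 0.22, limma adjusted p = 0.556). Hnrnpc, a nuclear reader of RNA structure changed by the mark, was at 38.4, 38.3 and 46.04 FPKM in WT and 54.4, 82.3 and 82.9 FPKM in KO, and its groups did not overlap (log2 fold change 0.80, limma adjusted p = 0.0836). Srsf3, a splicing factor that works with YTHDC1, was at 18.3, 23.8 and 20.6 FPKM in WT and 30.04, 32.1 and 31.7 FPKM in KO, again with no overlap (log2 fold change 0.57, limma adjusted p = 0.129). Hnrnpc and Srsf3 each passed in 4 of 15 alternatives. Hnrnpc was at 1.49 with equal library totals (limma adjusted p = 0.0361), 1.34 with quantile normalization (limma adjusted p = 0.0355), 0.84 with the length and GC correction (limma adjusted p = 0.0432) and 1.00 without KO replicate 1 (limma adjusted p = 0.0059). Srsf3 was at 1.24, 1.00, 0.81 and 0.59 in the same order (limma adjusted p = 0.0324, 0.0351, 0.0373 and 0.0446). Leaving out KO replicate 1 also brought 2 genes named here for that reason past the threshold: Cbll1, a subunit of the writer complex, went from -0.27 (limma adjusted p = 0.543) to -0.64 (limma adjusted p = 0.0271), and Elavl1, an RNA-binding protein that stabilizes transcripts, from 0.65 (limma adjusted p = 0.134) to 0.97 (limma adjusted p = 0.0065). Fmr1, another reader, had a mean of 0.948 FPKM and was not called (log2 fold change 0.84, limma adjusted p = 0.0534). It passed in 2 of 14 alternatives: with equal library totals (1.16, limma adjusted p = 0.0233) and without KO replicate 2 (1.02, limma adjusted p = 0.0493). Igf2bp1 was listed at 0 in all 6 libraries.

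**Figure D4:**
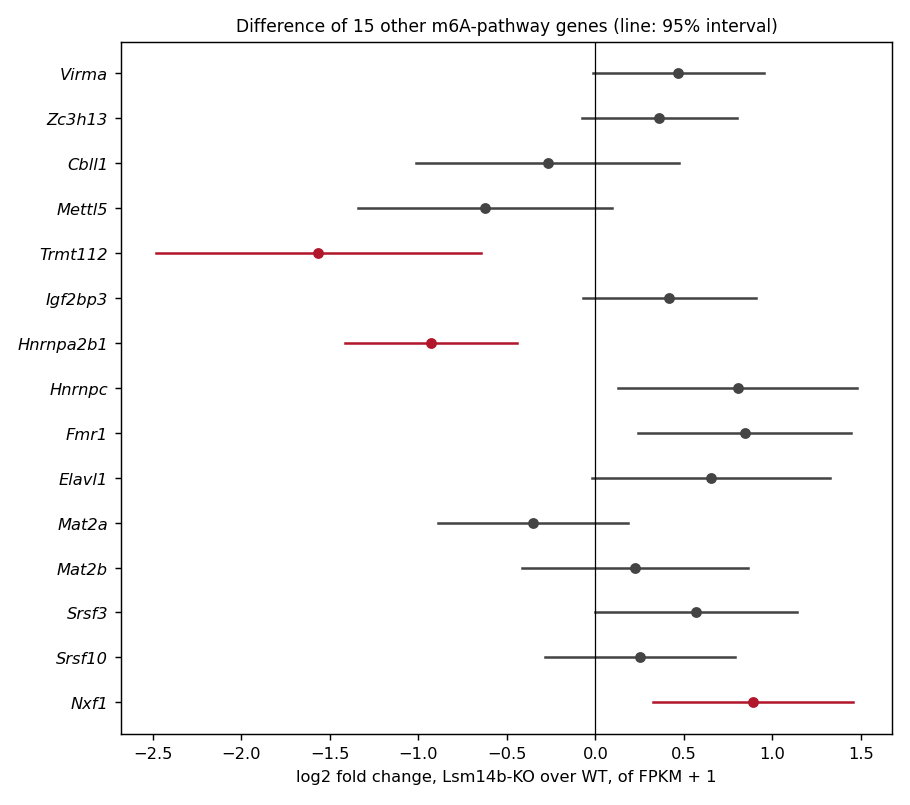
Difference between Lsm14b-KO and WT (log2 of FPKM + 1) for the 15 tested genes of the wider pathway, with 95% intervals; red marks genes past the threshold. Trmt112 and Hnrnpa2b1 lie below 0, at -1.57 and -0.93, and Nxf1 lies above it, at 0.89.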

How the data were processed

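RNA-Seq of 20 GV-stage FGOs per library was compared between 3 WT and 3 Lsm14b-KO libraries. Per the labels and the series description, the authors aligned reads to mm10 with TopHat2 2.0.13 and deposited FPKM from Cufflinks 2.2.1, one column per library. Cuffnorm and Cuffdiff are also named there, without a version. Which scaling between libraries the deposited FPKM carry was not examined. The annotation and the use of strand are not given in the sources used here. The columns of the deposited table that hold the authors' own Cuffdiff comparison (fold changes and p-values) were not used. Values were tested as log2(FPKM + 1) with limma 3.58.1 (R 4.3.3, intensity trend, genotype only) over the 6398 genes at 1 FPKM or more in at least 1 library, with Benjamini-Hochberg adjustment and a threshold of 0.05. Shares and ratios were compared by exact permutation tests. The table holds no counts. The relative divisor of each library was read from the steps of low FPKM values, and the width of the window for this was revised after the values were seen. The genes, lists and tests were chosen with earlier results of these data known. All 10 genes are named, with Lsm14b as the check of the labels, and of 30 further genes those past the threshold or at a mean of 10 FPKM or more. Fto, Igf2bp1, Cbll1, Elavl1 and Fmr1 were named after their values were seen. Transcripts and positions came from GENCODE vM21 (GRCm38, as mm10), promoter windows from RefSeq (GRCm38.p6). Near-identical transcripts were found with blastn 2.17.0. The fit was tested on simulated data that gave both groups the spread of the WT libraries. The median SD of tested genes on the log2 scale was 0.21 in WT and 0.37 in KO. The error rate with the larger KO spread was therefore not tested. The alternatives covered pseudocounts of 0.1 and 0.01, filters, scalings, a length and GC correction, the trend, a replicate block and leaving out each library.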

Additional observations from a re-analysis of the deposited data

How the results depend on the processing

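Ythdf2 passed the threshold under all 15 alternatives, and no alternative turned its sign. The count of all called genes, 1383, was 720 without a filter on low values (14325 genes tested) and between 315 and 2898 with one library left out, the lowest without KO replicate 3 and the highest without KO replicate 1. It was 396, 397 and 462 without WT replicates 1, 2 and 3 and 865 without KO replicate 2. The count among the 10 genes stayed at 1 except without KO replicate 1, where it was 2 (range 1 to 2), with Alkbh5 as the added gene at 3.09. Among the 30 further genes the count of 3 was 0 without the filter, 5 with every library scaled to the same FPKM total, and between 0 and 7 with one library left out. Of called genes 29.5% were higher in KO, against 63.2% with equal totals, 42.4% with quantile normalization and 44.2% with the length and GC correction. The signs that turned, none with a call, were those of Mettl3 (0.0651), Wtap (0.55), Ythdf3 (0.33), Ythdc1 (0.25), Cbll1 (0.28) and Mat2a (0.0696) with equal totals, Wtap (0.66) and Ythdf1 (-0.0183) with quantile normalization, Ythdf1 (-0.10) and Mettl5 (0.15) with the length and GC correction, and Ythdf1 with WT replicate 1, WT replicate 2 or KO replicate 3 left out (range over all 6 libraries -0.0858 to 0.117). Equal totals moved the median of tested genes by 0.48, and measured from that median Mettl3, Ythdf3 and Ythdc1 stayed below 0. Cbll1 and Mat2a also stayed under the median, which was 0.40 with equal totals. The cause of the other turns was not tested. The replicate numbers did not pair the libraries (correlations of same-numbered deviations 0.19, -0.13 and 0.02, and not every library correlated best with its own number); with a replicate block 1244 genes were called and Ythdf2 kept a log2 fold change of 2.13 (limma adjusted p = 0.0081). The length and GC correction could not be run for the ratios that use Mettl14 or Ythdc2. At these FPKM, Mettl14 and Ythdc2 are too low to compare.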
